A study of Mus musculus with 10 samples.

Results

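A set of 9 vessel-related genes was followed in overloaded mouse plantaris muscle: the angiopoietins Angpt1 and Angpt2, their receptors Tek (Tie2) and Tie1, apelin (Apln) and its receptor Aplnr, and Angptl4, Esm1 and Prnd. They were taken by symbol from the array annotation, with the brightest probe set of 1 symbol standing for each gene, and all 9 were found among the 22180 genes measured. Of these, 8 were chosen by their known roles, and Prnd was selected on its lower log2 values with the inhibitor in these same arrays, so its values are a description and no test of it is given in any comparison. The other 8 genes were tested.

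The comparison covered 5 groups of male C57BL/6 mice, with 2 pools per group and RNA of 4 muscles in each pool. They were 10 d of overload with a drug that blocks PDGF (platelet-derived growth factor) signalling, 10 d of overload without it, 3 d of overload with it, 3 d of overload without it, and muscle that was neither overloaded nor given the inhibitor. Synergist ablation, the removal of neighbouring muscles so that the plantaris carries their load, produced the overload. The sources used here do not name the inhibitor or give the age of the mice and the treatment of those without it, and no group had the inhibitor without overload. Values are RMA log2 expression, and the median of an array was 2.40 to 2.45. Markers of skeletal muscle fibres were high in every pool (mean of 8 genes 11.45 to 11.83), and none of 16 endothelial markers had a mean below the median of all values (dimmest Cldn5, 3.34 to 4.46).

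Angiopoietin 1 is made by mural and other perivascular cells and keeps vessels quiet through the receptor Tek on endothelial cells, whereas angiopoietin 2, released by activated endothelium, mostly opposes it. Tie1 is a relative of Tek that modulates its signalling. Apelin is a secreted peptide made by endothelial tip cells at the front of growing vessels, and its receptor Aplnr is a G protein-coupled receptor of veins and sprouting capillaries. Angptl4 is a secreted protein that inhibits lipoprotein lipase, Esm1 (endocan) is a proteoglycan of tip cells, and Prnd encodes doppel, a membrane-anchored relative of the prion protein found in testis and in developing or growing endothelium.

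**Figure D1:**
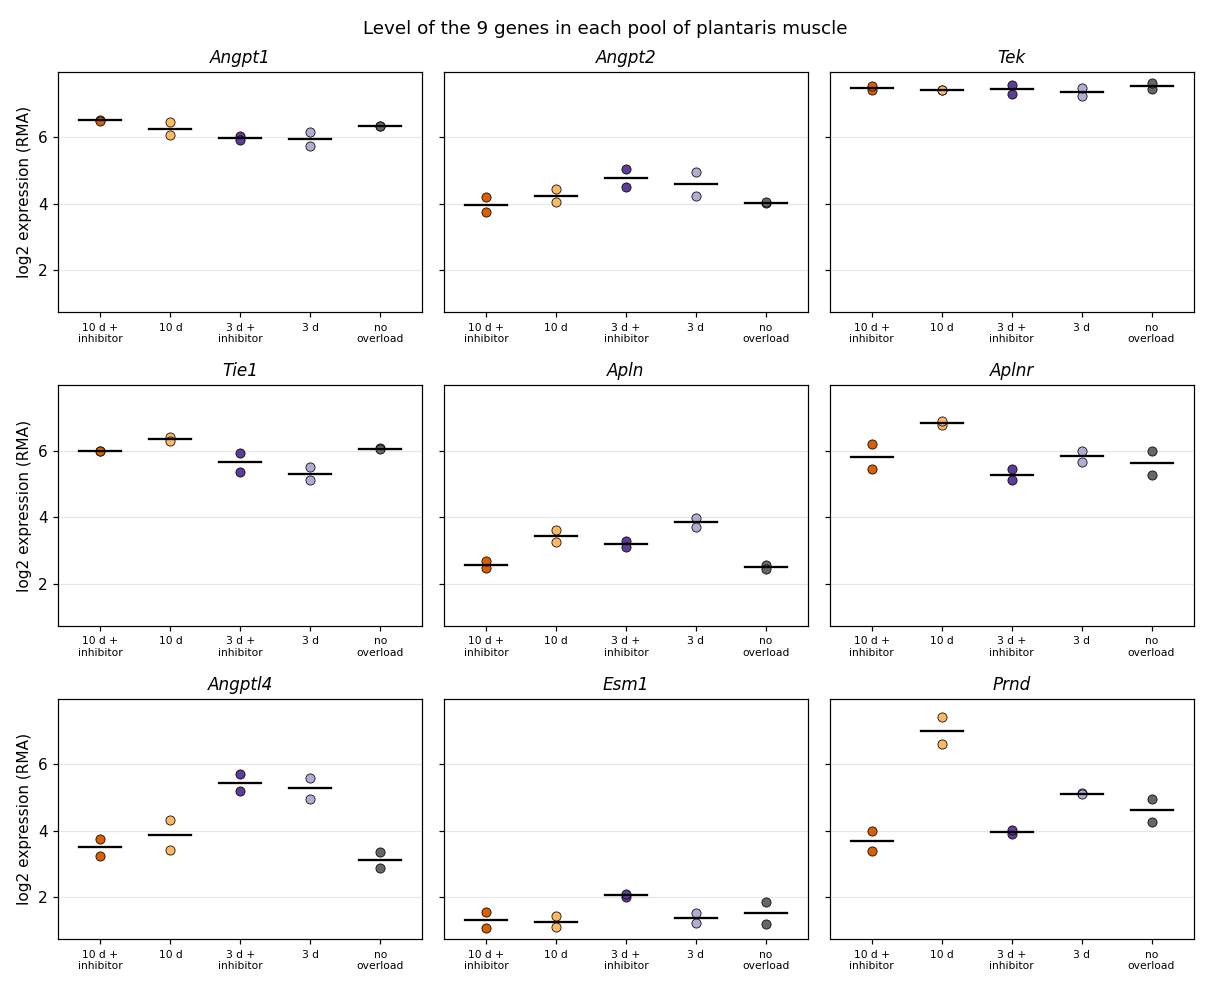
Log2 expression (RMA, vertical axis) of the 9 genes in each pool of plantaris muscle. Points are single pools, 2 per group, and bars are group means. Prnd reached 7.42 and 6.61 after 10 d of overload, against at most 5.13 in any other pool, and Angptl4 was at 4.96 or above in the 4 pools of 3 d and at 4.31 or below in all others.

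Apelin was higher in overloaded muscle at both times, and without overload it was close to the array median. After 3 d of overload Apln stood at 3.96 and 3.72, against 2.55 and 2.44 without overload. The groups did not overlap, as for 25.1% of all genes in this direction, and Apln was 2.54-fold higher (log2 1.34 ± 0.18, SE, limma adjusted p = 0.00142). RMA compresses differences of dim signals, so folds of Apln against muscle without overload may be understated. After 10 d of overload it stood at 3.25 and 3.62 and was 1.92-fold higher than without overload (log2 0.94 ± 0.18, adjusted p = 0.0220). The call at 3 d held without any single pool, and the call at 10 d was lost without overload pool 2 or either pool without overload (log2 0.75 to 1.13, adjusted p up to 0.131). Between the times, the 10 d level was lower by a log2 change of -0.40 ± 0.18, which did not pass (adjusted p = 0.239).

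With the PDGF inhibitor, Apln was lower than in overload alone at both times, and neither difference passed the test. At 10 d it stood at 2.46 and 2.67 with the inhibitor, against 3.25 and 3.62 in overload alone, a log2 difference of -0.87 ± 0.18 (95% interval -1.27 to -0.47, adjusted p = 0.142). At 3 d it stood at 3.29 and 3.10 with the inhibitor, against 3.96 and 3.72 in overload alone, a log2 difference of -0.65 ± 0.18 (adjusted p = 0.341). The pools did not overlap at either time, as for 19.5% of all genes in this direction at 10 d and 17.7% at 3 d. Averaged over both times the difference was -0.76 ± 0.12 (unadjusted p = 2.19e-04, adjusted p = 0.0572), and without 10 d overload pool 1 it passed (-0.85, adjusted p = 0.0271). The inhibitor effects at 10 d and 3 d differed by -0.22 ± 0.25, which did not pass (adjusted p = 0.901). Set against muscle without overload, inhibited muscle still had more Apln at 3 d (log2 0.70 ± 0.18, adjusted p = 0.0317) and differed by 0.07 at 10 d (95% interval -0.33 to 0.47). The 3 d call was lost when either pool of either group was left out (log2 0.60 to 0.79, adjusted p up to 0.166).

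In level, Apln ran from 3 d overload (mean 3.84) through 10 d overload (3.44), 3 d with inhibitor (3.19) and 10 d with inhibitor (2.57) to no overload (2.50). Pools of 10 d overload overlapped those of 3 d with inhibitor, and pools of 10 d with inhibitor overlapped those without overload. Over the 10 arrays, the genes whose log2 values ran most like Apln were Scpep1, Sgpl1 and Fads1, each at r = 0.98 among 2766 genes compared. These correlations describe arrays that share the group structure of the study.

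Aplnr, the receptor, was highest after 10 d of overload, and no comparison of it passed the test. It stood at 6.76 and 6.90 after 10 d of overload, above all other pools, against 5.26 and 6.00 without overload. The log2 difference was 1.21 ± 0.31 (2.31-fold, 95% interval 0.50 to 1.91, adjusted p = 0.0612), and it passed when dim genes were left out (adjusted p = 0.0283) or the variance was modelled with a trend (adjusted p = 0.0164). After 3 d of overload it stood at 5.67 and 6.01, which overlapped the pools without overload (log2 0.21 ± 0.31). The 10 d level was 1.99-fold above the 3 d level (log2 difference 0.996 ± 0.31, adjusted p = 0.101).

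Aplnr was lower with the inhibitor at both times, again short of the threshold. At 10 d it stood at 5.44 and 6.22 with the inhibitor, against 6.76 and 6.90 in overload alone (log2 -1.01 ± 0.31, adjusted p = 0.282). At 3 d it stood at 5.12 and 5.44 with the inhibitor, against 5.67 and 6.01 in overload alone (log2 -0.56 ± 0.31, adjusted p = 0.637). Pools with the inhibitor lay below those of overload alone at both times, as for 19.5% of all genes at 10 d and 17.7% at 3 d. Averaged over the times the log2 difference was -0.78 ± 0.22 (95% interval -1.28 to -0.29, adjusted p = 0.179). Inhibited muscle and muscle without overload overlapped at both times. Below 10 d overload, each neighbour in the order of group means overlapped the next: 3 d overload (5.84), 10 d with inhibitor (5.83), no overload (5.63) and 3 d with inhibitor (5.28). The genes most like Aplnr over the 10 arrays were Reck (r = 0.93), Gpc6 (0.91) and Tnmd (0.88).

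Partners of the apelin receptor were taken from a list of 11 other genes, namely the peptide Apela, G protein subunits, arrestins, peptidases that act on apelin or its precursor, and the transcription factor Klf2. At 3 d of overload Arrb2 (an arrestin, log2 1.40), Gnai2 (0.93) and Gna13 (0.48) rose and the peptidase Ece1 fell by 0.50. Over all genes 17.5% were called there, and the list median was 0.25 against -0.04 over all genes. At 10 d Gnai2 rose (0.83) and none fell, where 5.13% of all genes were called. For the inhibitor against overload alone none of the 11 passed at either time, where 0.104% of all genes were called at 10 d and 0% at 3 d. Against no overload Gna13 alone was called at 3 d with the inhibitor (log2 0.66, adjusted p = 0.0146), where 14.2% of all genes were. Apela, the other known ligand of Aplnr, lay between 0.64 and 1.07 in all pools, below every array median.

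The angiopoietin receptors differed from each other in pattern. Tie1 was lower after 3 d of overload, at 5.50 and 5.12 against 6.09 and 6.04 without overload, a fall of 1.69-fold (log2 -0.76 ± 0.20, adjusted p = 0.0345). After 10 d of overload it stood at 6.42 and 6.29, above the 3 d pools by 2.07-fold (log2 1.05 ± 0.20, adjusted p = 0.0228). The 10 d pools lay above all others, and their log2 difference of 0.29 ± 0.20 from muscle without overload did not pass (adjusted p = 0.473). The fall at 3 d was lost in 5 of 10 single-pool omissions (3 d overload pool 2, either pool without overload, either 10 d inhibitor pool; log2 -0.95 to -0.57 over all omissions, adjusted p up to 0.187). The difference between the times was lost without any one of the 4 pools compared (log2 0.86 to 1.24, adjusted p up to 0.119).

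Tie1 was lower with the inhibitor at 10 d and higher at 3 d, and neither difference passed. At 10 d it stood at 6.00 in each inhibitor pool, against 6.42 and 6.29 in overload alone (log2 -0.36 ± 0.20, adjusted p = 0.597). At 3 d it stood at 5.37 and 5.94 with the inhibitor, against 5.50 and 5.12 in overload alone (log2 0.35 ± 0.20, adjusted p = 0.662), and these pools overlapped. The difference between the inhibitor effects, -0.70 ± 0.29, had an unadjusted p of 0.0388 and an adjusted p of 0.737. Group means ran from 10 d overload (6.36) through no overload (6.07), 10 d with inhibitor (6.00) and 3 d with inhibitor (5.65) to 3 d overload (5.31), and the pools of the last pair overlapped. Genes most like Tie1 over the arrays were Oaz2 (r = 0.94), the venous receptor Ephb4 (0.93) and Zdhhc1 (0.92).

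Tek varied least of the 9 genes, between 7.24 and 7.64 over all 10 pools. Its group means ran from 7.54 without overload to 7.36 at 3 d of overload, and neighbours in this order overlapped throughout. None of its comparisons passed. After 10 d of overload Tek differed from muscle without overload by -0.12 (95% interval -0.47 to 0.23), after 3 d by -0.19 (-0.54 to 0.16), and with the inhibitor from overload alone by 0.06 at 10 d (-0.29 to 0.41) and 0.09 at 3 d (-0.26 to 0.43). Changes of up to these bounds are not excluded by the arrays.

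The angiopoietins themselves did not pass in any comparison with the probe sets used. Angpt2 was highest in the 3 d groups, at 4.49 and 5.03 with the inhibitor and 4.94 and 4.23 in overload alone, against 4.02 and 4.04 without overload. The log2 differences from no overload were 0.73 ± 0.28 with the inhibitor (unadjusted p = 0.0312, adjusted p = 0.138) and 0.56 ± 0.28 without it (adjusted p = 0.238). At 10 d it stood at 3.74 and 4.19 with the inhibitor and at 4.05 and 4.44 in overload alone. All 4 pools of 3 d lay above both pools without overload, while the 10 d inhibitor pools straddled them. Taken by group, 26.8% of all genes had both 3 d inhibitor pools above those without overload, and 25.1% had both 3 d overload pools above them. The order of means ran from 3 d with inhibitor (4.76), 3 d overload (4.59), 10 d overload (4.24) and no overload (4.03) to 10 d with inhibitor (3.97), and only the pools of 10 d overload and no overload were separate among neighbours. Morrbid, Spidr and Tmed9 ran most like Angpt2 (r = 0.89, 0.89 and 0.87).

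For Angpt1 the brighter probe set, which stands for the gene here, moved within 0.78 log2 units. It stood at 6.53 and 6.50 at 10 d with the inhibitor, 6.45 and 6.06 at 10 d of overload, 6.05 and 5.93 at 3 d with the inhibitor and 5.75 and 6.15 at 3 d of overload, against 6.33 and 6.34 without overload. The log2 differences from no overload were -0.07 ± 0.18 at 10 d and -0.38 ± 0.18 at 3 d of overload (adjusted p = 0.874 and 0.208). A dimmer probe set of Angpt1 gave another picture, with 4.46 and 4.36, 4.18 and 3.96, 4.16 and 3.69, and 3.24 and 3.81 in the same order of groups, against 2.57 and 2.62 without overload. All 8 overloaded pools of that probe set lay above both pools without overload. Taken by group, both pools lay above them for 21.5% of all genes at 10 d with the inhibitor and 22.1% at 10 d of overload. The shares were 26.8% at 3 d with the inhibitor and 25.1% at 3 d of overload. The share for all groups together was not counted. In a fit over all probe sets it was called higher at 10 d with the inhibitor (0.186% of all probe sets called higher), at 10 d of overload (0.955%) and at 3 d with the inhibitor (3.32%), and not at 3 d of overload (4.73%). The sources used here do not say which exons or transcripts either probe set covers, so the direction of Angpt1 under overload is uncertain. With the inhibitor the brighter probe set differed by 0.25 ± 0.18 from overload alone at 10 d and by 0.04 ± 0.18 at 3 d (adjusted p = 0.691 and 0.969). Platelets also carry angiopoietin 1, and the mean level of 5 platelet and megakaryocyte markers was higher with the inhibitor at both times. It was 6.11 and 5.22 at 10 d with the inhibitor against 3.996 and 3.98 in overload alone, and 5.09 and 5.52 against 4.69 and 4.23 at 3 d. Pf4, 1 of the 5, went the other way at 3 d (log2 -0.77), and none of the 5 passed at either time. The part of platelets in the Angpt1 values was not tested.

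**Figure D2:**
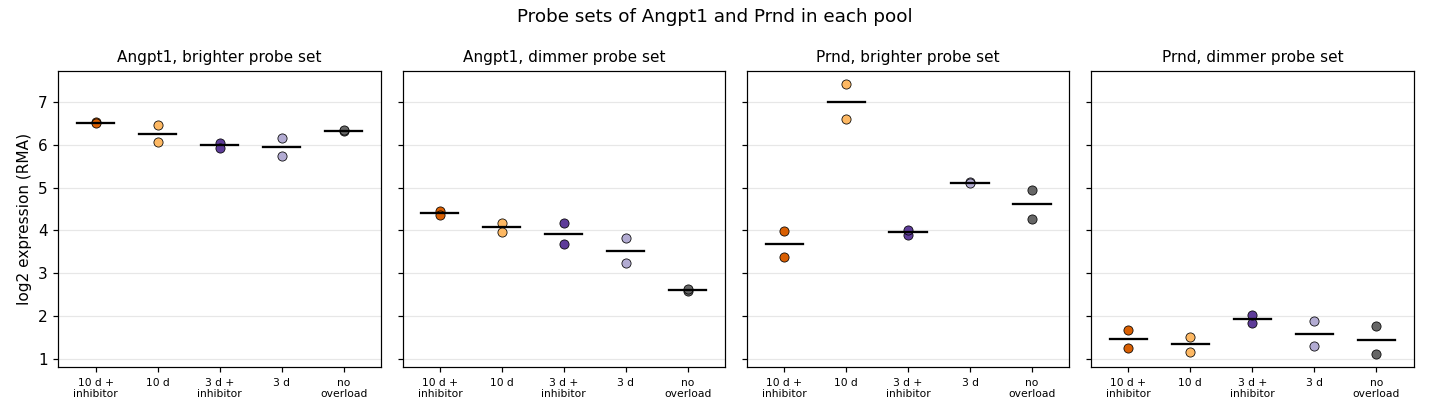
Log2 expression (RMA, vertical axis) of both single-symbol probe sets of Angpt1 and of Prnd in each pool. Points are pools, 2 per group, and bars are group means. The dimmer Angpt1 probe set was lowest without overload (2.57 and 2.62), which the brighter one did not show, and the dimmer Prnd probe set stayed between 1.12 and 2.02.

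Other genes of angiopoietin signalling were taken from a list of 14: ligands and binding partners, the phosphatase Ptprb, adaptors, integrins and downstream factors. At 3 d of overload 6 of the 14 rose and 2 fell, against 17.5% of all genes called in either direction. The rises were led by the integrin subunit Itga5 (5.80-fold), the cathepsin Ctsh (3.62-fold) and Svep1, a matrix protein that binds Tie1 (2.07-fold), and the adaptor Grb14 fell by 2.40-fold. Foxo1, a transcription factor restrained by Tek signalling, fell at 3 d (log2 -0.67) and stood 1.53-fold higher at 10 d than at 3 d (adjusted p = 0.0343). At 10 d Svep1 (2.76-fold), Itga5 (2.40-fold) and Ctsh (2.08-fold) rose and none fell, where 5.13% of all genes were called. In inhibited muscle Itga5 and Svep1 also rose against no overload at 10 d (2.46-fold and 2.21-fold), where 1.56% of all genes were called. None of the 14 passed for the inhibitor against overload alone at either time, with list medians of -0.16 at 10 d and -0.13 at 3 d against 0.01 and 0.03 over all genes. Ptprb, which dephosphorylates Tek, lay between 8.15 and 8.56 in all pools.

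Angptl4 had the largest tested change of the group, at 3 d, with or without the inhibitor. In overload alone it stood at 5.60 and 4.96 at 3 d, against 3.37 and 2.88 without overload, 4.45-fold higher (log2 2.16 ± 0.36, adjusted p = 0.00415). With the inhibitor it stood at 5.70 and 5.20 at 3 d, again above no overload (log2 2.32 ± 0.36, adjusted p = 0.00411). Both rises passed without any single pool. The inhibitor pools and the overload pools of 3 d overlapped, with a log2 difference of 0.17 (95% interval -0.65 to 0.98).

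At 10 d Angptl4 did not pass against muscle without overload (log2 0.38 with the inhibitor and 0.74 in overload alone, adjusted p = 0.698 and 0.291). It stood at 3.76 and 3.24 with the inhibitor and at 3.42 and 4.31 in overload alone. Against 3 d it was 3.85-fold lower with the inhibitor (log2 -1.95 ± 0.36, adjusted p = 0.0232) and 2.66-fold lower in overload alone (log2 -1.41 ± 0.36, adjusted p = 0.0572). The call with the inhibitor was lost without any one of the 4 pools compared (log2 -2.21 to -1.68, adjusted p up to 0.149), and without 10 d overload pool 2 the difference in overload alone passed (-1.86, adjusted p = 0.0414). Among neighbours in level, the 3 d groups overlapped each other and the 10 d groups overlapped each other, and 10 d with inhibitor overlapped no overload. Ptgs2, Tns3 and Odf1 ran most like Angptl4 over the 10 arrays (r = 0.98 each).

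Angptl4 is known as a target of PPAR nuclear receptors and of hypoxia, and these programmes were read beside it from lists of 13 and 15 measured genes. At 3 d of overload 8 of the 13 PPAR targets fell and none rose, where 8.18% of all genes were called lower and 9.31% higher (list median -0.80, against -0.04 over all genes). They included Plin5 (7.95-fold), Acot2 (3.71-fold) and Ucp3 (3.26-fold), genes of lipid use, and lipoprotein lipase (Lpl), the enzyme that Angptl4 inhibits, which fell by 2.98-fold. Lpl stood at 9.50 and 9.22 after 10 d of overload and at 8.62 and 8.79 after 3 d, against 10.24 and 10.31 without overload. Of the 15 hypoxia genes, the glucose transporter Slc2a1 rose at 3 d (1.94-fold) and 6 fell, led by the glycolytic regulator Pfkfb3 (3.68-fold), Egln1 (2.28-fold) and Bnip3 (2.03-fold). With the inhibitor at 3 d, Slc2a1 rose by 2.78-fold against no overload, and 5 of the 15 fell, where 6.51% of all genes were called lower. Adipocyte markers, another source of Angptl4, had no called gene among 6 in any of these comparisons, and their mean level was 4.58 and 4.51 at 3 d with the inhibitor and 4.93 and 4.36 at 3 d of overload, against 4.56 and 4.96 without overload. Macrophage markers were also higher in overloaded muscle. At 3 d all 6 were called higher than without overload, with the inhibitor (median log2 2.83, beside 7.71% of all genes) and in overload alone (3.41, beside 9.31%). The median was -1.49 for 10 d against 3 d of overload. All 6 were still called higher at 10 d of overload (3.9% of all genes), where Angptl4 was higher by a log2 of 0.74, which did not pass. At 10 d with the inhibitor Cd68, Itgam, Mrc1 and Fcgr1 were called higher (1.13% of all genes), and neither Angptl4 (log2 0.38) nor Apln (0.07) passed. Their mean level was 5.73 and 5.88 at 10 d with the inhibitor, 6.04 and 6.53 at 10 d of overload, 7.49 and 7.34 at 3 d with the inhibitor and 7.98 and 7.73 at 3 d of overload, against 4.25 and 4.60 without overload. The part of PPAR receptors, hypoxia, adipocytes and macrophages in the values of Angptl4 was not tested, nor was that of macrophages in the values of Apln. Of 3 other angiopoietin-like genes measured, Angptl1 rose at 10 d of overload by 3.62-fold (adjusted p = 0.0173), at 6.46 and 7.53, against 5.15 and 5.12 without overload. Angptl7 and Angptl8 did not pass there (log2 -0.56 and 0.05), where 3.9% of all genes were called higher.

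Esm1 was dim, between 1.06 and 2.09 in all pools and so below every array median, where RMA compresses differences. Its highest values were 2.01 and 2.09, at 3 d with the inhibitor, against 1.52 and 1.21 in overload alone (log2 0.69 ± 0.25, unadjusted p = 0.0253, adjusted p = 0.477). At 10 d it stood at 1.06 and 1.56 with the inhibitor and at 1.09 and 1.42 in overload alone, against 1.19 and 1.84 without overload. None of its comparisons passed, and only the 3 d inhibitor group stood apart from its neighbour in level. For the inhibitor at 3 d the 95% interval of Esm1 was 0.11 to 1.27, and 0% of all genes were called in that comparison. The part of the dim signal in these outcomes was not tested. The genes most like it were Abhd6 (r = 0.78), Pwp2 (0.78) and Dnajb2 (0.77).

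Prnd spanned the widest range of the 9 genes, 4.03 log2 units. At 10 d it stood at 3.99 and 3.39 with the inhibitor, against 7.42 and 6.61 in overload alone, which is 9.99-fold lower. At 3 d it stood at 3.89 and 4.02 with the inhibitor, against 5.13 and 5.10 in overload alone, which is 2.23-fold lower. These are the differences for which the gene was picked, and they carry no test.

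Without overload Prnd stood at 4.27 and 4.95. Muscle overloaded for 10 d was therefore 5.28-fold above it, and muscle overloaded for 3 d was 1.41-fold above it. All 4 pools with the inhibitor lay below both pools without overload, by 1.89-fold at 10 d and 1.58-fold at 3 d in the group means. The order of means was 10 d overload (7.01), 3 d overload (5.11), no overload (4.61), 3 d with inhibitor (3.95) and 10 d with inhibitor (3.69). Pools of the last pair overlapped, and all other neighbours were separate. Because overload pools were high and inhibitor pools low by the choice of the gene, none of these differences was tested.

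The pattern of Prnd rests on 1 probe set. A dimmer probe set of Prnd alone lay between 1.12 and 2.02 in all pools, with 1.67 and 1.24 at 10 d with the inhibitor and 1.15 and 1.52 in overload alone. With the mean of both probe sets the log2 inhibitor difference at 10 d was -1.60, and it was -3.32 with the brighter one. A probe set annotated to both Prnp and Prnd, neighbouring genes of the prion family, was not used for either gene. It lay between 5.83 and 6.42 in all pools and was 6.31 and 6.38 at 10 d with the inhibitor, against 6.07 and 6.31 in overload alone.

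The genes most like Prnd over the 10 arrays were Hmgn3 (r = 0.87), Tmem200b (0.86) and the basement membrane protein Nid2 (0.86). Nid2 stood at 5.46 and 5.30 at 10 d with the inhibitor, against 6.15 and 6.31 in overload alone. Because Prnd was picked for its lower values with the inhibitor, genes chosen to run like it share that pattern by selection. Among the members, Prnd and Aplnr had r = 0.77 over the 10 arrays, and Prnd and Apln 0.46. These values also rest on the picked pattern of Prnd and carry no test. With its brighter probe set, Angpt1 ran opposite to Angpt2 (r = -0.91), and Angptl4 ran with Angpt2 (0.77) and Apln (0.74). No correlation was read for the dimmer Angpt1 probe set, which gave another picture under overload.

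Promoters were read for the members with an entry in the RefSeq table of build GRCm38.p6, which matched 5 of the 9 genes (Tek, Tie1, Apln, Esm1 and Prnd). The 250 bases before the start are shown for Prnd and Apln, both lower with the inhibitor in these pools, and for Esm1, the other promoter in which a core motif was found. The motifs searched were ACGTG and GCGTG, cores of the hypoxia response element, on both strands, and capitals mark their matches. Prnd lies at chr2:131950611-131950860 on the plus strand, Apln at chrX:48034854-48035103 on the minus strand, and Esm1 at chr13:113209409-113209658 on the plus strand, each printed 5′ to 3′ along the gene.
Prnd: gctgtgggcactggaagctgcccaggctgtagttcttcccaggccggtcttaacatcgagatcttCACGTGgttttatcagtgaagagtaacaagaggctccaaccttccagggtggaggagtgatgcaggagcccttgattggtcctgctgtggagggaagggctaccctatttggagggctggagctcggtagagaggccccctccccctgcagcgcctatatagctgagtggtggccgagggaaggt
Apln: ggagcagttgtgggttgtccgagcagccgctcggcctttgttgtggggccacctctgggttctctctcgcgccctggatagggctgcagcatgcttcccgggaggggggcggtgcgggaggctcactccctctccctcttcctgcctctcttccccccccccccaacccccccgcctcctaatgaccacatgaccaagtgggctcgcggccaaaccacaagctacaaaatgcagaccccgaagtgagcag
Esm1: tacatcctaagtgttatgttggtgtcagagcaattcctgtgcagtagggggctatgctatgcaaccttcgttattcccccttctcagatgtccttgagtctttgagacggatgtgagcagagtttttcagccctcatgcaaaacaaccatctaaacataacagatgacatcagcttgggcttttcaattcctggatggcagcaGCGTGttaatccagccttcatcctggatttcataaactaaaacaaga

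In Prnd, ACGTG and its reverse complement overlap in a single palindrome that begins 185 bases before the start. Esm1 holds GCGTG, beginning 47 bases before the start. Apln, Tek and Tie1 hold neither core in this window, nor does a further annotated Prnd start downstream. Of 32851 promoters of the same length, 16.6% hold ACGTG and 28.2% hold GCGTG, so such matches are common, and they describe the letters only.

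**Figure D3:**
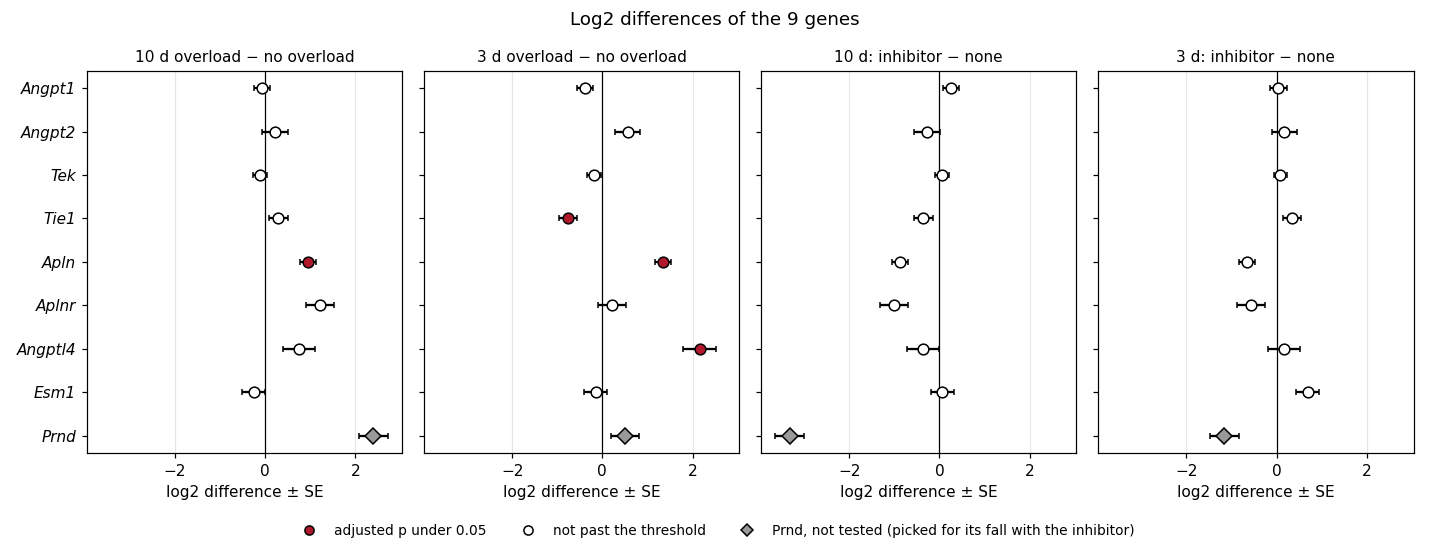
Log2 differences (horizontal axes, bars are standard errors of the limma fit) of the 9 genes in 4 comparisons, from 10 d and 3 d of overload against no overload to the inhibitor against overload alone at 10 d and 3 d. Filled circles passed an adjusted p of 0.05 and open circles did not. Prnd, a grey diamond, was not tested. Apln was called at both times of overload, Angptl4 and Tie1 at 3 d, and no tested gene with the inhibitor.

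Counted over the 8 tested genes, 3 were called at 3 d of overload against none (Apln and Angptl4 higher, Tie1 lower), where 17.5% of all genes were called. At 10 d of overload Apln alone was called, where 5.13% of all genes were, and between 10 d and 3 d Tie1 alone, where 6.08% were. In inhibited muscle against no overload, Apln and Angptl4 were called at 3 d (14.2% of all genes) and none of the 8 at 10 d (1.56%). Between 10 d and 3 d with the inhibitor Angptl4 alone was called (4.65%). With so few members, shares of this size can be read against the background only loosely. These comparisons share pools and are not independent of each other.

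For the inhibitor against overload alone, limma called none of the 8 at 10 d (2 at an unadjusted p under 0.05, Apln and Aplnr; 0.104% of all genes called), none at 3 d (2 unadjusted, Apln and Esm1; 0% of all genes) and none averaged over the times (2 unadjusted, Apln and Aplnr; 0.289%). None passed for the difference between the inhibitor effects (1 unadjusted, Tie1; 0%). Under a trended variance Apln passed in the average (adjusted p = 0.0469). The median log2 change of the 8 was -0.32 at 10 d and 0.13 at 3 d, against 0.01 and 0.03 over all genes.

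Genes of sprouting vessels, a list of 20 that leaves the members out, were read next. At 10 d of overload, where 3.9% of all genes were called higher, 5 rose and none fell: the basement membrane genes Lamb1 (2.94-fold), Col4a1 (2.56-fold) and Nid2 (2.19-fold), the endothelial diaphragm protein Plvap (2.27-fold) and the adhesion molecule Mcam (log2 0.69). At 3 d 6 rose, led by the urokinase receptor Plaur (3.02-fold), the chemokine receptor Cxcr4 (2.46-fold) and Plvap (2.01-fold), and Pfkfb3 and the Notch ligand Dll4 fell (log2 -0.90 for Dll4), beside 9.31% of all genes called higher and 8.18% called lower. With the inhibitor at 10 d, Lamb1 fell by 2.29-fold relative to overload alone (adjusted p = 0.0459), at 6.51 and 6.33 against 7.48 and 7.75, and the list median was -0.33 against 0.01 over all genes. At 3 d none of the 20 passed for the inhibitor (median -0.04, against 0.03). In inhibited muscle Plvap was 2.16-fold above no overload at 10 d and 2.15-fold at 3 d. It was the only gene of the 20 called at 10 d with the inhibitor against no overload (list median 0.02), where 1.56% of all genes were called. At 3 d with the inhibitor 4 of the 20 were called higher and 3 lower (list median 0.09), where 14.2% of all genes were called. Mcam is also among the pericyte and smooth muscle markers. The part of cell types other than endothelium in the values of these 20 genes was not tested.

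Endothelial markers had few calls, given here beside the shares over all genes. Their mean level over 16 genes was 6.77 and 6.72 at 10 d with the inhibitor, 6.94 and 6.82 at 10 d of overload, 6.68 and 6.71 at 3 d with the inhibitor and 6.62 and 6.60 at 3 d of overload, against 6.67 and 6.73 without overload. Flt1 and Sox18 fell at 3 d of overload (1.57-fold and 1.56-fold), beside the fall of Tie1, where 17.5% of all genes were called. At 3 d with the inhibitor Ecscr (1.64-fold) and Eng (1.38-fold) rose against no overload, where 14.2% of all genes were called. None of the 16 passed at 10 d against no overload, where 5.13% of all genes were called in overload alone and 1.56% with the inhibitor. Counts over 16 genes can be read against these shares only loosely. In such bulk samples, fewer cells of a type and less RNA per cell cannot be told apart. For the inhibitor against overload alone none of the 16 passed at either time, where 0.104% of all genes were called at 10 d and 0% at 3 d.

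Fibroblast markers had more. The mean of 7 fibroblast markers was 7.47 and 7.54 at 10 d with the inhibitor, against 7.99 and 8.41 in overload alone, and 7.27 and 7.28 at 3 d with the inhibitor, against 7.76 and 7.62 in overload alone. It was 6.81 and 6.95 without overload. The mean thus lay between no overload and overload alone in all inhibitor pools. Single markers varied: Dcn lay below its pools without overload in both 3 d groups (log2 -0.31 with the inhibitor and -0.16 in overload alone), and Dpp4 did so at 10 d with the inhibitor (-0.34), none of which passed. Of the 7, 5 rose at 10 d of overload, led by Col1a1 (7.10-fold) and Lum (3.93-fold), where 3.9% of all genes were called higher. None passed for the inhibitor against overload alone, where 0.104% of all genes were called at 10 d and 0% at 3 d. The 10 pericyte and smooth muscle markers averaged 7.42 and 7.37 at 10 d with the inhibitor and 7.61 and 7.58 in overload alone, against 7.34 and 7.44 without overload. The part of these cell types in the values of Prnd, Aplnr and Apln was not tested.

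**Figure D4:**
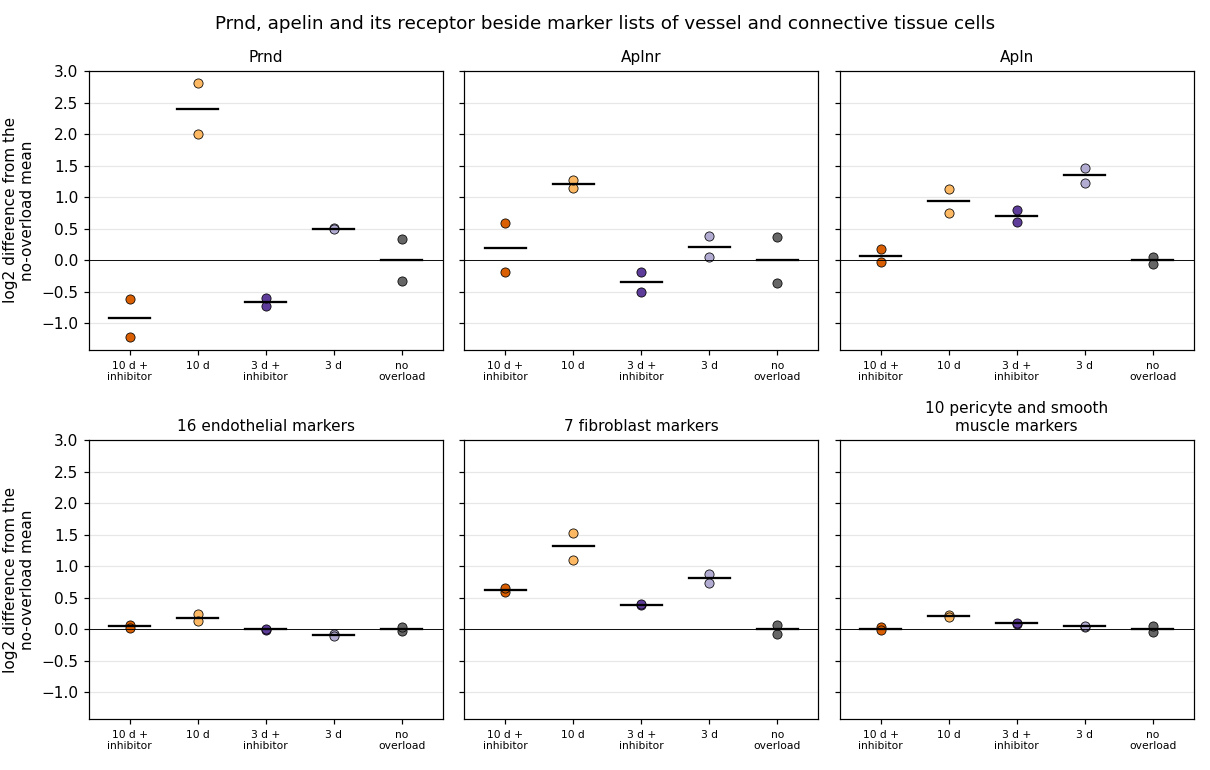
Log2 difference from the mean of the pools without overload (vertical axis) for Prnd, Aplnr and Apln (top) and for the mean of 16 endothelial, 7 fibroblast and 10 pericyte and smooth muscle markers (bottom). Points are pools, 2 per group, and bars are group means. Prnd with the inhibitor lay below the level without overload, and the mean of the 7 fibroblast markers lay above it in every overloaded pool.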

How the data were processed

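Plantaris RNA was hybridised to Affymetrix Mouse Gene 2.1 ST arrays, per the labels. The values are log2 expression as deposited by the authors, for 41345 probe sets on 10 arrays, from -0.45 to 12.71. RMA, oligo and limma are named, without versions, in the submitters' processing notes. RMA gives all arrays the same distribution, which hides a change common to most transcripts, and it compresses dim genes. The sources used here give no genome build, scan date or strip. A pool is 1 replicate. Whether the pools of a group held separate animals is not stated, and the p-values then reflect the spread between pools, possibly a technical one.

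Of the probe sets, 23521 had 1 gene symbol, 1814 had several and 16010 were not listed, which gave 22180 genes, 1082 of them with several probe sets. No gene was filtered out. limma 3.58.1 in R 4.3.3 was fitted with 1 coefficient per group over all arrays (5 residual degrees of freedom) and empirical Bayes moderation. Adjusted p-values are Benjamini-Hochberg values over all genes of a comparison, called under 0.05, and every gene's p comes from this fit. The dimmer Angpt1 probe set was tested in a fit over all probe sets. Values after ± are standard errors of the fit. The steps were tested on simulated data.

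The members, gene lists and tests were chosen with earlier results of these data known. All members are named, with up to 4 called genes of the largest change per list and comparison, and the 3 genes best correlated with each member that spans at least 1 log2 unit (mean at least 4, span at least 1, unnamed loci left out). Genes completing a count of a list, Ptprb, Apela, Lpl, Dcn and Dpp4 were named after their values were seen. The number of arrays limits the precision.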

Additional observations from a re-analysis of the deposited data

Results flagged for a closer look

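The dimmer probe set of Angpt1, which the comparisons do not use, was higher than without overload in 3 of the 4 overloaded groups in a limma fit over all probe sets. The log2 differences were 1.81 at 10 d with the inhibitor (adjusted p = 0.0426), 1.47 at 10 d of overload (adjusted p = 0.0379) and 1.33 at 3 d with the inhibitor (adjusted p = 0.0208). At 3 d of overload the difference was 0.93 and did not pass (adjusted p = 0.0544). In that fit 0.186%, 0.955%, 3.32% and 4.73% of all probe sets were called higher in these comparisons. The brighter probe set of the same gene gave 0.18, -0.07, -0.34 and -0.38 and was called in none.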

How the results depend on the processing

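No paired analysis was possible because the labels give the pools no numbers that groups share. No called value of the 8 tested genes changed sign under any alternative. A common array median or a repeated quantile normalization changed none of their 80 calls each. With a trended and robust variance, the number of the 8 genes called was 2 for 10 d of overload, 3 for 10 d against 3 d, 1 for the inhibitor averaged over the times and 1 for 3 d with the inhibitor against none, where 1, 1, 0 and 2 were called. Without dim genes (6 of the 8 stayed, Apln and Esm1 did not) it was 3 for 10 d against 3 d and 1 for 3 d with the inhibitor. Both counts hold Angptl4, which passed that filter only through the 4 pools of 3 d and 1 pool of 10 d overload, so they give it no support. Fitting only the groups compared gave 0 at 10 d of overload, 0 for 10 d against 3 d and 1 for 3 d with the inhibitor, and Tie1 was no longer called at 3 d. The mean of all probe sets gave 1 (Angpt1) for 10 d with the inhibitor against none, where 0 were called. The cause of these moves was not tested.

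Leaving out 1 pool at a time, the number of the 8 genes called was 2 to 3 at 3 d of overload, 0 to 1 at 10 d, 0 to 1 for 10 d against 3 d, 0 to 1 for the same with the inhibitor, 1 to 2 for 3 d with the inhibitor and 0 to 1 for the inhibitor averaged over the times. It stayed at 0 in the other comparisons. The log2 inhibitor difference of Prnd at 10 d lay between -3.72 and -2.92. Prnd was picked for its fall with the inhibitor, so this range is a description and gives the fall no support. In the fit over all probe sets, which adjusts over more tests, 5 of the 8 calls were lost: Apln at 10 d of overload (adjusted p = 0.0635), Apln at 3 d with the inhibitor (0.0754), Tie1 at 3 d of overload (0.0803), Tie1 for 10 d against 3 d (0.0688) and Angptl4 for 10 d against 3 d with the inhibitor (0.0703). The calls of Apln and Angptl4 at 3 d of overload and of Angptl4 at 3 d with the inhibitor passed there too.

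Counts over all genes moved more. For 10 d of overload 1138 genes were called, and 1980 without dim genes, 2115 with the trended variance and 31 with only the groups compared. For 10 d against 3 d the counts were 1348, and 2440, 2458 and 202. For the inhibitor at 10 d they were 23, and 69, 161 and 3. At 3 d they were 0, and 6 and 14 under the first pair. Averaged over the times they were 64, and 288 and 455. For 10 d with the inhibitor against none they were 345, and 895, 1068 and 102, and for 10 d against 3 d with the inhibitor 1031, and 2021, 2012 and 349. For 3 d with the inhibitor 3154 genes were called, and 1933 with only the groups compared. Leaving out 1 pool gave 2146 to 3850 genes at 3 d of overload (3881 with all pools), 259 to 1232 at 10 d, 218 to 1096 for 10 d against 3 d, 0 to 180 for the inhibitor at 10 d, 0 to 7 at 3 d, 0 to 341 averaged and 0 to 14 for the difference of its effects. In inhibited muscle it gave 1343 to 3178 at 3 d against none, 31 to 486 at 10 d against none and 123 to 972 for 10 d against 3 d. Dim signal limits Esm1 most.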

Other observations

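Lymphatic endothelial markers, whose cells respond to angiopoietins through Tek, were measured in 5 genes. Lyve1, a hyaluronan receptor of lymphatic endothelium that some macrophages also carry, rose at 3 d of overload by 2.63-fold and was 3.16-fold lower at 10 d than at 3 d. Podoplanin (Pdpn), also a fibroblast gene, rose by 2.15-fold at 10 d and 3.59-fold at 3 d. Over all genes 9.31% were called higher at 3 d of overload and 3.9% at 10 d. Prox1, Flt4 and Reln passed at neither time, with log2 0.47, -0.04 and -0.27 at 3 d and 0.80, -0.30 and -0.04 at 10 d. At 10 d of overload Lyve1 differed from no overload by -0.26, which did not pass. With the inhibitor at 3 d the rises against no overload were 2.46-fold for Lyve1 and 2.72-fold for Pdpn, beside 7.71% of all genes called higher. None of the 5 passed for the inhibitor against overload alone. All 6 macrophage markers were higher than without overload at both 3 d and 10 d of overload, and the part of macrophages was not tested.

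Among 5 platelet and megakaryocyte markers, Gp9, a subunit of the platelet von Willebrand factor receptor, was 3.70-fold higher with the inhibitor averaged over both times (adjusted p = 0.0418). It stood at 7.12 and 5.79 at 10 d with the inhibitor, against 4.60 and 4.09 in overload alone, and at 6.02 and 6.20 at 3 d with the inhibitor, against 4.57 and 4.34 in overload alone. Without overload it stood at 5.75 and 5.33. In that average 0.289% of all genes were called. No other marker of the 5 passed for the inhibitor. Pf4 differed by a log2 of 0.10 in the average, by 0.97 at 10 d and by -0.77 at 3 d. Against no overload, Pf4 was called higher at 3 d of overload (log2 2.34, adjusted p = 1.56e-04, beside 9.31% of all genes). Gp9 differed by -1.09 there and did not pass.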
